A study of Mus musculus with 1 sample.

Results

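The mRNAs of 3 niche signals and their receptors were followed across the cells of the fetal mouse testis. The 8 genes were the KIT pair (*Kitl*, the ligand, and *Kit*, its receptor tyrosine kinase), the CXCL12 group (*Cxcl12*, a chemokine, with its receptors *Cxcr4* and *Ackr3*) and the GDNF group (*Gdnf*, a growth factor, with its binding co-receptor *Gfra1* and the signaling receptor tyrosine kinase *Ret*). They were picked by name from the 22631 features of the count matrix, with earlier results of these data known and no threshold on their values. The study compared control testes with testes that lose *Nr5a1*, an orphan nuclear receptor gene, in Sertoli cells. The data used are those of the control library, whereas mutant cells were not analysed here. That library was made from a pool of 12 testes, labelled E14.5 and WT, and the methods give such fetuses as *Nr5a1* L2/L2, which carry *loxP*-flanked alleles without the AMH-Cre transgene and without the YFP reporter, on a mixed C57BL/6 and 129/SvPass background. The text of the study names an earlier collection day beside E14.5, and the sources used here do not give which testes came from which day.

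KITL, made by somatic cells of the gonad as a membrane-bound or shed ligand, acts through KIT and is known for keeping migrating and early gonadal germ cells alive. CXCL12 guides germ cells to the gonad through CXCR4, whereas ACKR3 binds the same chemokine, does not couple to G proteins in the usual way and is known as a scavenger that shapes its gradients. GDNF binds GFRA1 on the cell surface and the complex activates RET, a route best known in the testis for the self-renewal of postnatal spermatogonia.

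Molecules were tagged at their 3′ end and counted by unique molecular identifiers (UMIs), so that each UMI stands for 1 captured mRNA whatever its length. Of 5421 barcodes, 3813 passed the filters, with a median of 12030 UMIs and 3575 genes per cell. Cells were clustered with the 8 genes and their pathway list left out of the variable genes, and clusters were named from other markers. The classes compared were Sertoli-like (867 cells), germ-like (246), Leydig-like (315), interstitial-like (1354), peritubular myoid-like (512), coelomic epithelium-like (153), perivascular-like (104), endothelial-like (42) and immune-like (36). Germ-like cells were the deepest, with a median of 35960 UMIs against 14303 in Sertoli-like, 16037 in Leydig-like and 9282 in interstitial-like cells. All 8 germ cell markers and 8 of 9 Sertoli cell markers were detected in at least 25% of the cells of their class. A level is given as UMIs of the gene per 1000000 UMIs of the class (CPM) with an exact Poisson 95% interval, and a share of cells with an exact Clopper-Pearson 95% interval. Both cover counting error only. Where nothing was counted, the limit given is the level or share that 3 UMIs or 3 cells would make, which lies below the upper end of the exact interval. With 1 library there was no replicate and no test was made, and levels are compared between cell classes for 1 gene at a time.

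The 8 genes lie on 6 chromosomes of GRCm38, all are annotated as protein-coding, and 7 overlap no other annotated gene. *Kitl* (ENSMUSG00000019966) occupies chr10:100015630-100100416 on the plus strand and *Kit* (ENSMUSG00000005672) chr5:75574916-75656722 on the plus strand. *Cxcl12* (ENSMUSG00000061353, chr6:117168535-117181367) and *Ackr3* (ENSMUSG00000044337, chr1:90203980-90216751) are on plus strands, and *Cxcr4* (ENSMUSG00000045382, chr1:128588199-128592293) is on the minus strand. *Gdnf* (ENSMUSG00000022144) is at chr15:7810846-7837575 on the plus strand, *Ret* (ENSMUSG00000030110) at chr6:118151745-118197718 on the minus strand, and *Gfra1* (ENSMUSG00000025089) at chr19:58235604-58455909 on the minus strand, where it overlaps Gm16277 on the other strand.

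The sequence before the RefSeq start is shown for *Cxcl12* and *Ackr3*, a ligand and a receptor that both had high levels in interstitial-like cells, and for *Gdnf*, which had its highest level in Sertoli-like cells. Each line holds the 250 bases upstream of the start, 5′ to 3′ on the strand of the gene, from RefSeq on GRCm38.p6. Capitals mark matches, on either strand, to a GC box (GGGCGG), a SOX core (ACAAT), an NR5A1 half-site (AAGGTCA) or a TATA box (TATAAA).
Cxcl12, chr6:117168285-117168534, plus strand: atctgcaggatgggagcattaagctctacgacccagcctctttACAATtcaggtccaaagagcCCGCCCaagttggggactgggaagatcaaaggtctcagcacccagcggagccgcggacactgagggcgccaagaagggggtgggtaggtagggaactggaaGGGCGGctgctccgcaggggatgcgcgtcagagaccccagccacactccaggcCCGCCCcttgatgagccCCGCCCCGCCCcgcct
Ackr3, chr1:90203730-90203979, plus strand: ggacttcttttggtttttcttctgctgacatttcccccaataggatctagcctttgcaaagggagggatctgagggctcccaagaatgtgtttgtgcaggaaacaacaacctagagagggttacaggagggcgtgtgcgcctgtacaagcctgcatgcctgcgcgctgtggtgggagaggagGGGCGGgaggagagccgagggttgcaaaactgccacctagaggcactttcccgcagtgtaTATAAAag
Gdnf, chr15:7809798-7810047, plus strand: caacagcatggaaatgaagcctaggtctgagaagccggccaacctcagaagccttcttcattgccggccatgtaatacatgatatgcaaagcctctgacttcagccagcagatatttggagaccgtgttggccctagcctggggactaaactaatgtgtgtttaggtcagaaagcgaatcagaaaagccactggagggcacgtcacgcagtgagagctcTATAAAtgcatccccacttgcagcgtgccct
The *Cxcl12* window held 5 matches to the GC box, 1 on the strand of the gene and 4 on the other, and 1 SOX core. A GC box and a TATA box were each matched once in the *Ackr3* window. The *Gdnf* window shown held 1 TATA box and none of the other motifs, whereas the window of a further RefSeq start of this gene, chr15:7813477-7813726, held 1 SOX core and no TATA box. The NR5A1 half-site was matched in none of these windows. Over all 32851 RefSeq windows of this length, 32.7% held a GC box, 27.7% a SOX core, 12.4% a TATA box and 4.08% an NR5A1 half-site. Of the GC box matches of *Cxcl12*, the last pair shares a base, and no match overlapped one of another motif. The windows were 64.4% G and C for *Cxcl12*, 54.0% for *Ackr3* and 50.8% for *Gdnf*, against a median of 52.4% over all windows.

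The ligands of the KIT and GDNF pathways had their highest levels in Sertoli-like cells, and that of the CXCL12 pathway in interstitial-like cells. In the normal testis Sertoli cells enclose the germ cells in cords, and interstitial cells lie between the cords.

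**Figure D1:**
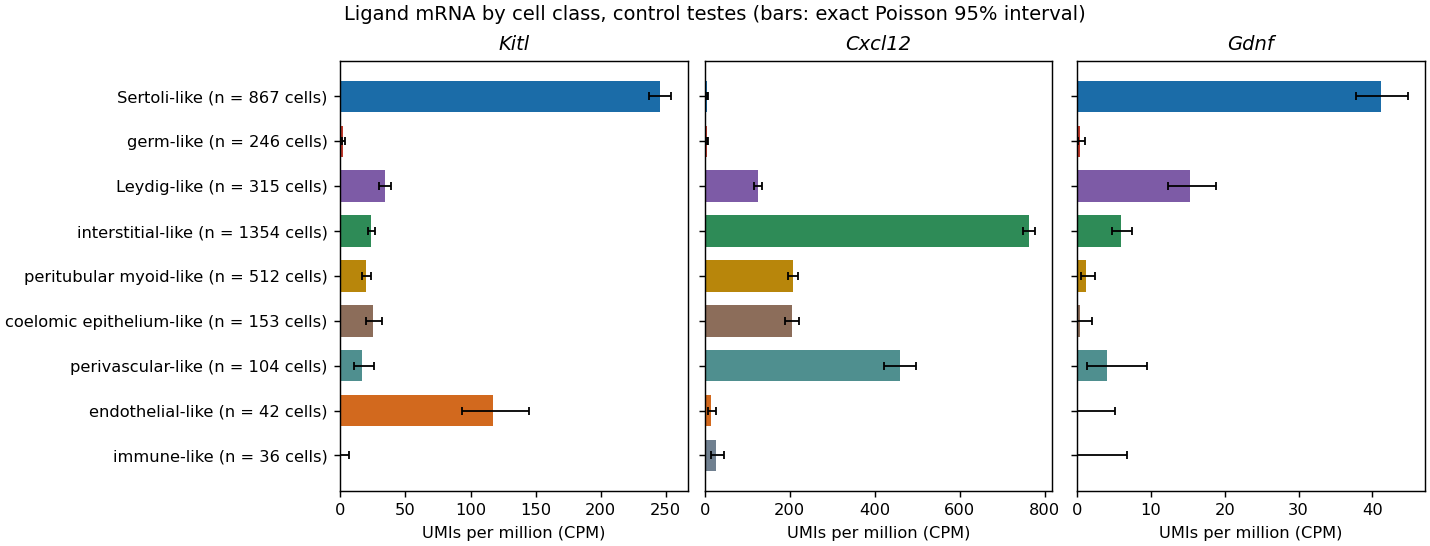
Level of each ligand mRNA (x axis, UMIs per 1000000, linear and starting at 0, with a scale of its own for each gene) in the 9 named classes of at least 30 cells (y axis). Black bars are exact Poisson 95% intervals. *Kitl* and *Gdnf* peak in Sertoli-like cells at 245.5 and 41.2 CPM, and *Cxcl12* in interstitial-like cells at 763 CPM.

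*Kitl* reached 245.5 CPM in Sertoli-like cells (interval 237.0 to 254.1, 3186 UMIs), which held 77.6% of its UMIs in kept cells. The next class, endothelial-like cells, had 117 CPM (93.6 to 145), 2.09 times lower and with an interval that did not overlap. Leydig-like (34.0 CPM), coelomic epithelium-like (25.3), interstitial-like (23.7), peritubular myoid-like (19.7) and perivascular-like cells (16.9) followed, and neighbors among these 5 classes had overlapping intervals. Germ-like cells had 1.98 CPM of this ligand (1.16 to 3.18), which is 0.808% of the Sertoli-like level. The 9 Sertoli cell markers had between 0.557% and 1.61% of their Sertoli-like level in the germ-like cells, and *Kitl* lay within their range. In Leydig-like cells *Kitl* had 13.9% of its Sertoli-like level and all 9 markers had less, between 0 and 10.8%. No *Kitl* UMI was counted in the 36 immune-like cells, which allows a level of up to 5.45 CPM. In the 13 rete testis-like cells, too few to be ranked, *Kitl* stood at 191 CPM (29 UMIs). The second place also depended on the processing. Rete testis-like cells held it with no doublets removed (173.3 CPM), and mesonephric epithelium-like cells with each cell classed by itself (174.9 CPM).

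Nearly every Sertoli-like cell kept by the filters contributed. *Kitl* had at least 1 UMI in 92.3% of Sertoli-like cells (90.3 to 93.96), with a median of 3 UMIs per cell, quartiles of 2 and 5, and a highest count of 16. Thinned to 5000 UMIs per cell, a depth that leaves out 19 of the cells, the share was 69.7% (66.5 to 72.8), against 0.413% (0.0105 to 2.28) in germ-like cells, where 5.29% of cells had a UMI before thinning. The filter on outlying cells removed many cells of the Sertoli-like class. It had 867 cells with 3186 *Kitl* UMIs here, and 1193 with 3348 when the filter was set at 5 median absolute deviations. Without the filter it had 1303 cells with 3373 UMIs. The share of cells with a UMI was not recomputed for these sets and applies to the 867 cells. By scored cell-cycle phase, *Kitl* stood at 252 CPM in 467 Sertoli-like cells called G1 (239.8 to 265.1), 222 CPM in 210 called S (206.4 to 239.1) and 255 CPM in 190 called G2M (238.6 to 272). The S interval lay just under that of G1 and overlapped that of G2M narrowly.

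*Gdnf* followed the same class at a lower level. It had 41.2 CPM in Sertoli-like cells (37.8 to 44.9, 535 UMIs, 73.0% of its UMIs in kept cells). Leydig-like cells came next, with 15.3 CPM (12.3 to 18.8), 2.70 times lower. That is 37.1% of the Sertoli-like level, where the 9 Sertoli cell markers had between 0 and 10.8% of theirs. Interstitial-like (5.91 CPM) and perivascular-like cells (4.03 CPM) had overlapping intervals, and peritubular myoid-like cells had 1.204 CPM (0.520 to 2.37). Germ-like cells had 3 UMIs of *Gdnf*, at the limit of 3 counts. None was counted in endothelial-like or immune-like cells, which allows up to 4.19 and 5.45 CPM. The second place of Leydig-like cells depended on the processing. Immune-like cells held it with the outlier filter at 5 deviations (18.8 CPM) and rete testis-like cells with no doublets removed (26.2 CPM). With each cell classed by itself, mesonephric epithelium-like cells held it (22.4 CPM). In the 13 rete testis-like cells here, *Gdnf* stood at 32.9 CPM (10.7 to 76.9, 5 UMIs).

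In single cells *Gdnf* was sparse. A UMI was seen in 42.5% of Sertoli-like cells as read (39.1 to 45.8) and in 18.4% after thinning (15.8 to 21.2), against 1.22% and 0% of germ-like cells, where a count of 0 in 242 thinned cells allows up to 1.24%. No Sertoli-like cell had more than 5 UMIs of *Gdnf*, and 499 of 867 had none. The phases gave 37.4 CPM in G1 (32.7 to 42.6), 42.5 in S (35.7 to 50.2) and 46.6 in G2M (39.8 to 54.2), with overlapping intervals. Among thinned Sertoli-like cells with a *Kitl* UMI, 20.1% also had *Gdnf*, and among those without, 14.4%. As read, the shares were 43.8% and 26.9%.

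*Cxcl12* stood at 763 CPM in interstitial-like cells (749 to 778, 10199 UMIs, 72.3% of its UMIs in kept cells). Among the named classes, perivascular-like cells came next at 458.4 CPM (421.5 to 497.7), 1.67 times lower with no overlap. This place depended on the processing. Peritubular myoid-like cells came next instead at resolution 0.4 (253.2 CPM) and without the outlier filter (215 CPM). With log normalization the perivascular-like level was 358.6 CPM. Peritubular myoid-like (207 CPM, 196 to 218) and coelomic epithelium-like cells (205 CPM, 189 to 222) could not be separated, and Leydig-like cells had 126 CPM (117 to 135). Immune-like cells had 27.25 CPM (15.25 to 44.95) and endothelial-like cells 15.4 CPM (7.67 to 27.5), whose interval overlapped that of germ-like cells narrowly. The 15 immune-like UMIs lay in 3 of 36 cells, with 11 in 1 cell. The 11 endothelial-like UMIs lay in 3 of 42 cells, with up to 5 in 1 cell. The 54 germ-like UMIs lay in 32 of 246 cells, with up to 12 in 1 cell. Sertoli-like cells, at 6.16 CPM (4.89 to 7.67), and germ-like cells, at 6.30 CPM (4.73 to 8.22), were lowest and had overlapping intervals. These are 0.808% and 0.826% of the interstitial-like level. The 6 interstitial markers had between 0.688% and 29% of their own interstitial-like level in Sertoli-like cells and between 0.671% and 3.13% in germ-like cells. They did not separate the stromal classes sharply, with 49.7% to 166% of that level in peritubular myoid-like and 38.2% to 135% in coelomic epithelium-like cells, where *Cxcl12* had 27.1% and 26.9%.

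At least 1 *Cxcl12* UMI was present in 94.9% of interstitial-like cells (93.6 to 96.0) and, after thinning, in 89.9% (88.1 to 91.5). The median interstitial-like cell had 7 UMIs and the highest 39. After thinning, 1.65% of germ-like cells had a UMI (0.452 to 4.18), compared with 13.01% as read. Levels in interstitial-like cells differed between phases, with 863 CPM in 683 cells called G1 (839 to 888), 661 in 381 called S (637 to 686) and 726 in 290 called G2M (698 to 756), and no intervals overlapped. The median depth of those cells was 8191 UMIs in G1, 11024 in S and 11662 in G2M. The class also pools clusters that differed in *Cxcl12* (850, 629 and 640 CPM, described below). The parts of depth and of cluster make-up in the difference between phases were not tested.

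Germ-like cells held 134 of the 140 *Ret* UMIs in kept cells, and *Ackr3*, like *Cxcl12*, had a high level in interstitial-like cells. *Kit* and *Cxcr4*, in contrast, had higher levels in Leydig-like, endothelial-like and immune-like than in germ-like cells. For both genes, the shares of cells at equal depth had intervals that overlapped between germ-like cells and each of these classes. The Leydig-like clusters differed in *Cxcr4*, with 27.7 CPM in the cluster led by *Clps* and 1.57 CPM in that led by *Nppc*. Germ-like cells had 5.49 CPM.

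**Figure D2:**
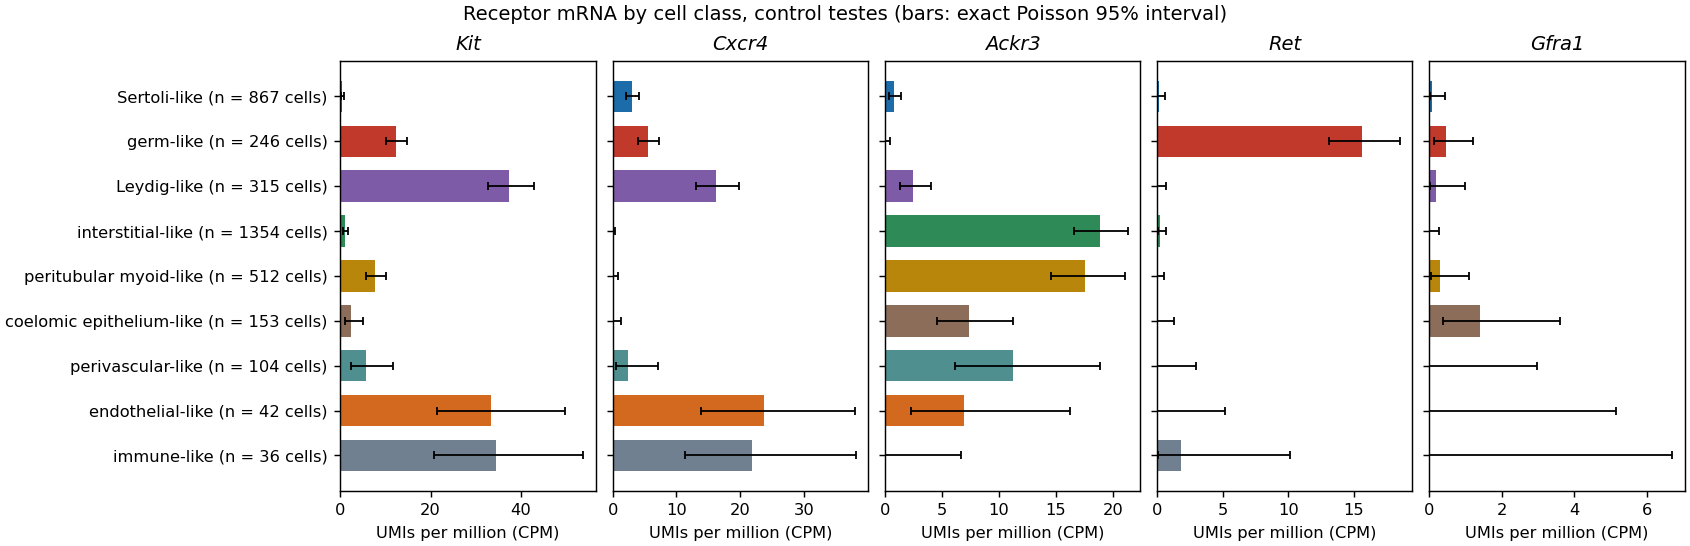
Level of each receptor mRNA (x axis, UMIs per 1000000, linear and starting at 0, with a scale of its own for each gene) in the same 9 classes (y axis). Black bars are exact Poisson 95% intervals, and classes without a UMI show the upper end of that interval alone. *Kit* has 37.5 CPM in Leydig-like and 12.3 CPM in germ-like cells, and *Ret* 15.6 CPM in germ-like cells.

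*Kit* stood at 12.3 CPM in germ-like cells (10.02 to 14.8, 105 UMIs) and at 37.5 CPM in Leydig-like cells (32.7 to 42.8, 216 UMIs). The intervals were apart, and Leydig-like cells held 47.9% of the *Kit* UMIs in kept cells against 23.3% in germ-like cells. Immune-like cells had 34.5 CPM (20.8 to 53.9, 19 UMIs) and endothelial-like cells 33.5 CPM (21.5 to 49.9, 24 UMIs), neither of which could be separated from Leydig-like cells. The 19 immune-like UMIs lay in 6 of 36 cells, with up to 6 in 1 cell, and the 24 endothelial-like UMIs in 17 of 42 cells. With each cell classed by itself from the same markers, endothelial-like *Kit* was 19.1 CPM. Peritubular myoid-like cells had 7.68 CPM (5.71 to 10.1), an interval that overlapped that of germ-like cells narrowly. Sertoli-like cells, taken as a class that lacks *Kit*, had 4 UMIs in all, or 0.308 CPM (0.0840 to 0.789).

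A *Kit* UMI was found in 25.6% of germ-like cells (20.3 to 31.5), 34.9% of Leydig-like cells (29.7 to 40.5) and 0.461% of Sertoli-like cells. At 5000 UMIs per cell the shares were 7.44% (4.47 to 11.5), 14.4% (10.7 to 18.8) and 0.118% (0.00299 to 0.655), so both the germ-like and the Leydig-like share stood above that of Sertoli-like cells at equal depth. The germ-like and Leydig-like intervals overlapped narrowly. Immune-like cells (9.09%, 1.915 to 24.3) and endothelial-like cells (19.05%, 8.60 to 34.1) also had intervals that overlapped the germ-like one at this depth. The 10 germ-like cells with 3 or more UMIs reached at most 5, and 25 Leydig-like cells with 3 or more reached at most 8. Within germ-like cells, *Kit* stood at 33.1 CPM in 39 cells called S (23.7 to 44.9, 41 UMIs), above 6.74 CPM in 48 called G1 (3.23 to 12.4) and 9.24 CPM in 159 called G2M (6.94 to 12.1). Median depth was 33857 UMIs in S, 30948 in G1 and 37825 in G2M. The phases are scores from cell-cycle genes, and most germ-like cells were called G2M. The study describes germ cells of control testes as becoming mitotically quiescent around this stage. Whether the calls reflect division in this class was not tested, which also limits the phases of *Ret* below.

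*Cxcr4* was low throughout. Endothelial-like (23.7 CPM, 13.8 to 38.0, 17 UMIs), immune-like (21.8 CPM, 11.3 to 38.1, 12 UMIs) and Leydig-like cells (16.1 CPM, 13.03 to 19.8, 93 UMIs) led and had overlapping intervals. The 17 endothelial-like UMIs lay in 5 of 42 cells, with 7 in 1 cell, and the 12 immune-like UMIs in 8 of 36 cells. Of the 93 Leydig-like UMIs, 89 lay in the cluster led by *Clps*. The endothelial-like value was 38.0 CPM with no doublets removed and 13 CPM with each cell classed by itself. Germ-like cells had 5.49 CPM (4.03 to 7.29, 47 UMIs) and Sertoli-like cells, taken as lacking the receptor, 3.01 CPM (2.14 to 4.11), with intervals that overlapped only narrowly. With the filter on outlying cells loosened from 3 to 5 median absolute deviations, the germ-like level was 6.32 CPM (4.998 to 7.89), and the Sertoli-like level was not recomputed. As read, 17.1% of germ-like cells and 3.92% of Sertoli-like cells had a UMI, at median depths of 35960 and 14303 UMIs. At equal depth the shares were 2.48% (0.915 to 5.32) and 1.18% (0.567 to 2.16), which rest on 6 and 10 cells and have overlapping intervals. The Sertoli-like level itself was 18.6% of the Leydig-like one, while the 6 Leydig cell markers had between 0.0467% and 1.76% of theirs in Sertoli-like cells. Only 1 UMI was counted in the 1354 interstitial-like cells, which had the highest *Cxcl12*, and 0 in 153 coelomic epithelium-like cells, which allows a share of up to 1.96%.

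Among the classes compared, *Ackr3* was highest in interstitial-like and peritubular myoid-like cells. It had 18.9 CPM (16.6 to 21.3, 252 UMIs, 51.5% of its UMIs in kept cells) in the former and 17.6 CPM (14.6 to 21.1) in the latter. These classes could not be separated and changed order at resolution 1.2 and with each cell classed by itself. An unnamed cluster, described below, had a higher level (69.6 CPM). Perivascular-like (11.3 CPM), coelomic epithelium-like (7.37) and endothelial-like cells (6.98) came next, and Leydig-like cells had 2.43 CPM (1.33 to 4.08). In germ-like cells no *Ackr3* UMI was counted in 246 cells, which allows a share of up to 1.22% and a level of up to 0.350 CPM. A UMI was seen in 13.9% of interstitial-like cells (12.1 to 15.8) and, after thinning, in 9.32% (7.79 to 11.1), against none of the 242 thinned germ-like cells, which allows up to 1.24%. In thinned interstitial-like cells *Ackr3* was present in 9.59% of the 1157 with a *Cxcl12* UMI and in 6.92% of the rest.

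*Ret* had 15.6 CPM in germ-like cells (13.1 to 18.5), which held 95.7% of its UMIs in kept cells. The other 6 UMIs were in interstitial-like (3), Sertoli-like (2) and immune-like cells (1). In the 315 Leydig-like cells, taken as lacking *Ret*, none was counted, which allows a share of up to 0.952%. A UMI was present in 35.8% of germ-like cells (29.8 to 42.1) and in 4.55% (2.29 to 7.99) after thinning, with no cell above 4 UMIs. By phase, *Ret* had 17.8 CPM in G2M (14.5 to 21.6), 11.5 in G1 (6.68 to 18.4) and 10.5 in S (5.59 to 17.9), with overlapping intervals.

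*Gfra1*, the co-receptor through which GDNF reaches RET, was near the limit of detection. It had 13 UMIs in all 3813 cells. Of these, 4 were in 3 germ-like cells, or 0.467 CPM (0.127 to 1.195), and 4 in coelomic epithelium-like cells, or 1.40 CPM (0.382 to 3.59), with overlapping intervals. With the filter on outlying cells at 5 deviations or without it, germ-like cells had 11 UMIs of *Gfra1*, or 0.892 CPM (0.445 to 1.60). After thinning, 0 of 242 germ-like cells had a UMI, which allows up to 1.24%, and no order of classes can be read for this gene at this depth.

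Detection of several receptors in the same germ-like cell was sparse. As read, 63 cells had *Kit*, 88 had *Ret* and 20 had both, so *Ret* was present in 31.8% of cells with *Kit* and in 37.2% of those without. *Cxcr4* was present in 11.1% of germ-like cells with *Kit* and in 19.1% without. After thinning, 18 cells had *Kit*, 11 had *Ret*, 6 had *Cxcr4*, and no cell had *Kit* with either of the others. Of the 3 germ-like cells with *Gfra1*, 2 also had *Ret*. Counts of this size carry no test. With the filter on outlying cells at 5 deviations, the germ-like class had 308 cells in place of 246. It then held 132 UMIs of *Kit*, 204 of *Ret* and 78 of *Cxcr4*, against 105, 134 and 47 here. The shares of germ-like cells and the joint counts were not recomputed for that set and apply to the 246 cells.

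**Figure D3:**
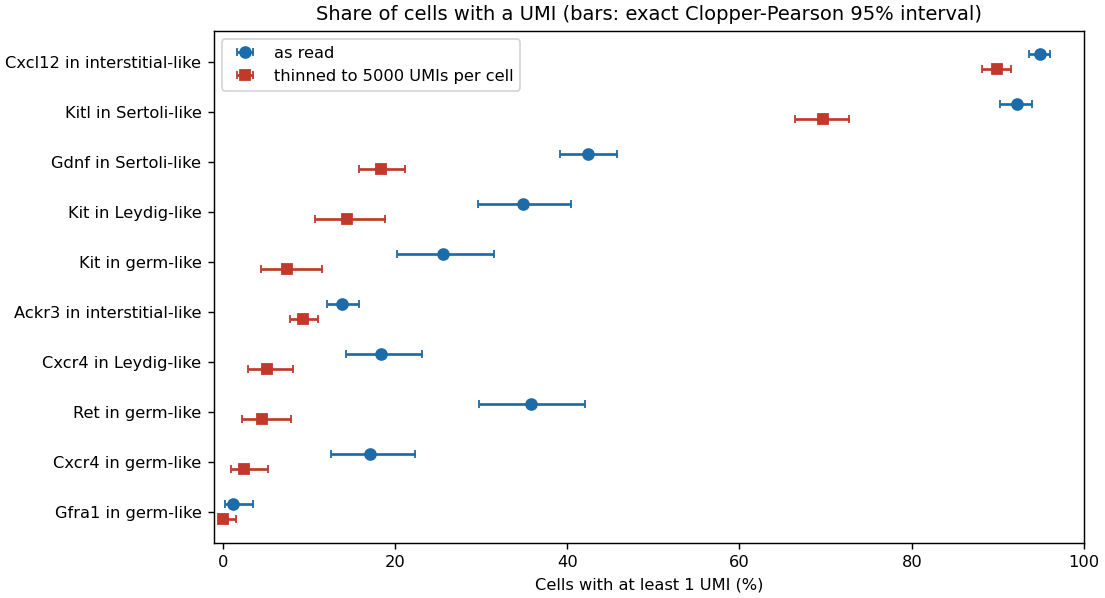
Share of cells with at least 1 UMI (x axis, %) for member genes in the classes that hold them (y axis), as read (circles) and after thinning each cell to 5000 UMIs (squares). Bars are exact Clopper-Pearson 95% intervals. In the single draw made at this depth, the share of germ-like cells with *Ret* goes from 35.8% to 4.55%. That of interstitial-like cells with *Cxcl12* goes from 94.9% to 89.9%.

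Thinning only removes UMIs from a cell, so that no cell can gain a gene by it. It also leaves out the shallower cells, so that the share of a class can still rise. The plot of shares as read and at equal depth gives the values of 10 pairs of gene and class on both scales.

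The 2 Leydig-like clusters differed in their niche genes. All 6 Leydig cell markers were detected in both, but the cluster of 129 cells was led by *Clps* and held 4 markers of steroid synthesis among its top 10 (*Cyp11a1*, *Cyp17a1*, *Star* and *Hsd3b1*), whereas that of 186 cells was led by *Nppc*, *Vsnl1* and *Nts* and had none of the markers among its top 10. *Cxcl12* stood at 15.5 CPM in the steroidogenic cluster (11.5 to 20.5) and 266 CPM in the other (246 to 286). *Cxcr4* had the opposite placement, with 27.7 CPM in the steroidogenic cluster (22.2 to 34.0, 89 UMIs) and 1.57 CPM in the other (0.429 to 4.03, 4 UMIs). *Gdnf* was at 5.28 CPM in the steroidogenic cluster (3.08 to 8.46) and 27.9 CPM in the other (21.8 to 35.2).

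*Kit* differed less between these clusters, and *Kitl* could not be separated. *Kit* had 29.2 CPM in the steroidogenic cluster (23.6 to 35.7) and 48.0 CPM in the other (39.9 to 57.3). *Kitl* had 31.7 CPM (25.8 to 38.5) and 37.0 CPM (29.9 to 45.3), with overlapping intervals. After thinning, 11.0% of the cells of the steroidogenic cluster and 1.08% of the other had a *Cxcr4* UMI. Over the Leydig-like class *Cxcr4* was present in 0.870% of thinned cells with *Cxcl12* and in 7.61% of those without, while *Kit* and *Cxcr4* were found together in 2 of 312. These shares pool both clusters, which also differed in *Cxcl12* after thinning (7.87% of cells in the steroidogenic cluster and 56.8% in the other). Detection of both genes in the same cell was not computed within a cluster. Over the Leydig-like class the 6 interstitial markers had between 6.33% and 138% of their interstitial-like level, and their part in the *Cxcl12* values was not tested. These pairs and clusters were looked at after the class values had been seen.

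**Figure D4:**
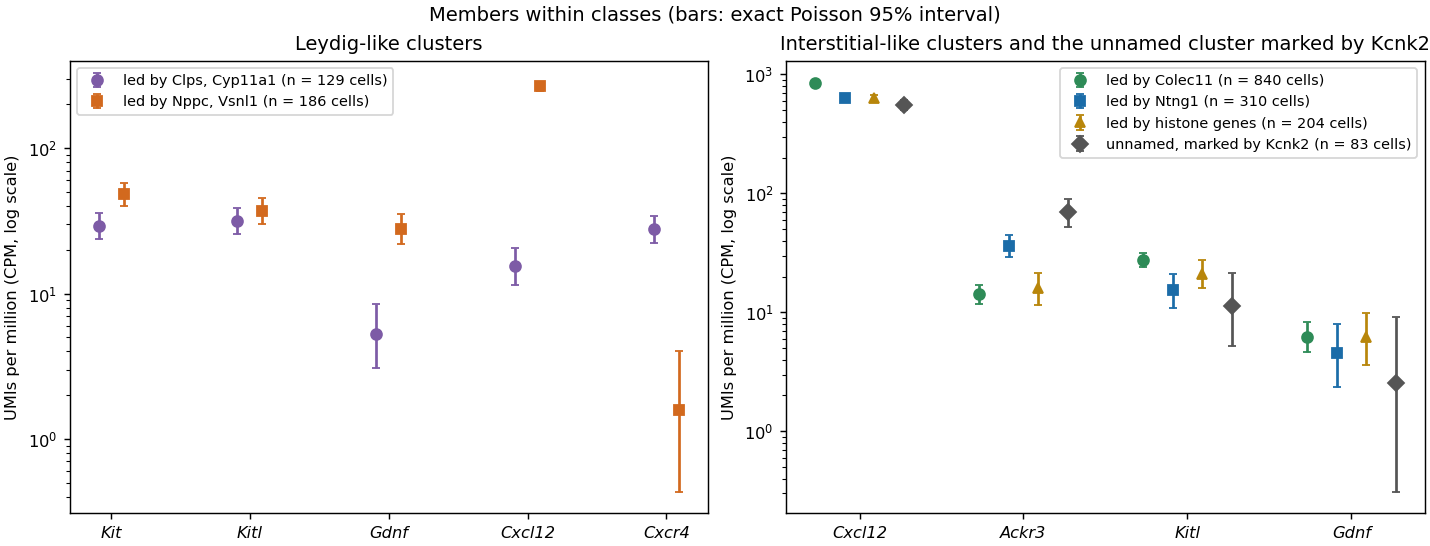
Level of member genes (y axis, UMIs per 1000000, log scale) in the Leydig-like clusters (left) and in the interstitial-like clusters with the unnamed cluster marked by *Kcnk2* (right). Bars are exact Poisson 95% intervals. *Cxcl12* and *Cxcr4* are placed in opposite Leydig-like clusters (266 against 15.5 CPM and 1.57 against 27.7 CPM), and *Ackr3* is highest in the unnamed cluster at 69.6 CPM.

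Within the interstitial-like class, *Cxcl12* and *Ackr3* did not rank the clusters alike. *Cxcl12* had 850 CPM in the 840 cells led by *Colec11* and *Inhba* (829.6 to 870.1), 629 CPM in the 310 cells led by *Ntng1* and *Sostdc1* (599 to 660.3) and 640 CPM in the 204 cells led by histone genes (610.0 to 670.2). *Ackr3* had 14.1 CPM (11.7 to 17.0), 36.3 CPM (29.4 to 44.4) and 16.0 CPM (11.6 to 21.5) in the same order, so the cluster led by *Ntng1* stood apart with the higher value. A further 83 cells, with *Kcnk2* and *Gdf10* among their leading genes, were nearest to the interstitial markers but were left unnamed because *Emcn*, an endothelial marker, was also among them. These cells had the highest *Ackr3* of any cluster, 69.6 CPM (52.4 to 90.6, 55 UMIs, 39.8% of cells), and 552 CPM of *Cxcl12* (501 to 606). The other unnamed cluster, 61 shallow cells nearest to the Sertoli markers, had 130 CPM of *Kitl* (87.0 to 187) and 22.4 CPM of *Gdnf* (7.27 to 52.3).

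Against all other kept cells, on the scale log2(CPM + 5), 7 of the 8 genes had the 50 UMIs needed for a fold, and *Gfra1* did not. In Sertoli-like cells *Kitl* (log2 difference 3.20) and *Gdnf* (2.24) were at least 2-fold higher, as were 8.18% of all 13178 genes. In germ-like cells *Ret* (2.01) was, against 11.0% of all genes, and *Kit* (0.46) and *Cxcr4* (0.27) were not. In Leydig-like cells *Kit* (2.11) and *Cxcr4* (1.49) were, against 4.77% of all genes, and *Gdnf* (0.15) was not. In interstitial-like cells *Cxcl12* (2.93) and *Ackr3* (1.14) were, against 4.11%. Each of the 7 genes passed 2-fold in 1 of the 4 classes, and the share of all genes that did so was not computed. The genes were chosen with earlier results of these data known, so nothing is read from this count.

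The pathways around these genes were described by a list of 73 gene symbols, of which 70 were in the matrix. Of those absent, *Adrbk1* and *Adrbk2* are older symbols of *Grk2* and *Grk3*, which were listed too and were present. At least 50 UMIs were counted for 64 genes (27 on the KIT side, 17 on the CXCL12 side and 20 on the GDNF side). In Sertoli-like cells 7 of 64 were at least 2-fold higher and 17 lower, beside 8.18% and 9.74% of all genes. *Gdf15*, a distant relative of GDNF that signals through RET with another co-receptor, led with 24.0 CPM and a log2 difference of 2.34. It was followed by *Rgs2*, a regulator of G protein signaling (1.35), and *Fyn*, a SRC-family kinase (1.25). *Dusp6*, a phosphatase that dampens ERK and is itself induced by it (1.14), and *Etv5*, a transcription factor known as a target of GDNF in spermatogonia (1.12), came next, and *Gab1* and *Spry4* also passed.

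Germ-like cells had 8 of 64 higher and 21 lower, beside 11.0% and 23.1% of all genes. *Lhx1*, another GDNF target in spermatogonia, stood at 34.5 CPM and a log2 difference of 2.97, with at most 0.154 CPM in any other of the 9 classes. *Pik3cd*, a catalytic subunit of PI3-kinase (2.20), *Arrb2*, a beta-arrestin (1.81), and *Foxo1*, a transcription factor restrained by AKT (1.42), came next. *Gfra4* (1.29), *Etv5* (1.06) and *Etv4* (1.003) also passed, so that *Etv5* passed in both classes, at 27.6 CPM (Sertoli-like) and 29.3 CPM (germ-like). Of the alternative co-receptors, *Gfra4* had 14.7 CPM in germ-like cells, and *Gfra2* 0.817 CPM there and 16.8 CPM in interstitial-like cells.

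In Leydig-like cells 4 of 64 were higher and 11 lower, beside 4.77% and 10.6% of all genes. They were *Nrtn*, a GDNF-family ligand (97.2 CPM, log2 difference 2.64), *Akt2* (1.09), *Rgs10* (1.08) and *Akt1* (1.03). In interstitial-like cells 5 were higher and 8 lower, beside 4.11% and 7.42% of all genes. *Gnai1*, an inhibitory G protein subunit (1.83), *Sdc3*, a heparan sulfate proteoglycan that binds GDNF (1.77), *Grk5*, a receptor kinase (1.36), *Spry1*, an inhibitor of receptor tyrosine kinase signaling (1.27), and *Gfra2*, the co-receptor of neurturin (1.03), made up the 5. *Gfra2* stood at 25.8 CPM in perivascular-like, 19.1 in peritubular myoid-like and 16.8 in interstitial-like cells, and no order is read from these values.

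The median log2 difference of the list lay below that of all genes in Sertoli-like (-0.31 against -0.06), germ-like (-0.71 against -0.27) and Leydig-like cells (-0.53 against -0.25), and was close to it in interstitial-like cells (-0.07 against -0.06). On the GDNF side, 4 of 20 genes were at least 2-fold higher and 8 lower in Sertoli-like cells, beside 8.18% and 9.74% of all genes. In germ-like cells 4 of the 20 were higher and 7 lower, beside 11.0% and 23.1%. On the KIT side, 0 of 27 were higher and 1 lower in interstitial-like cells, beside 4.11% and 7.42%.

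**Figure D5:**
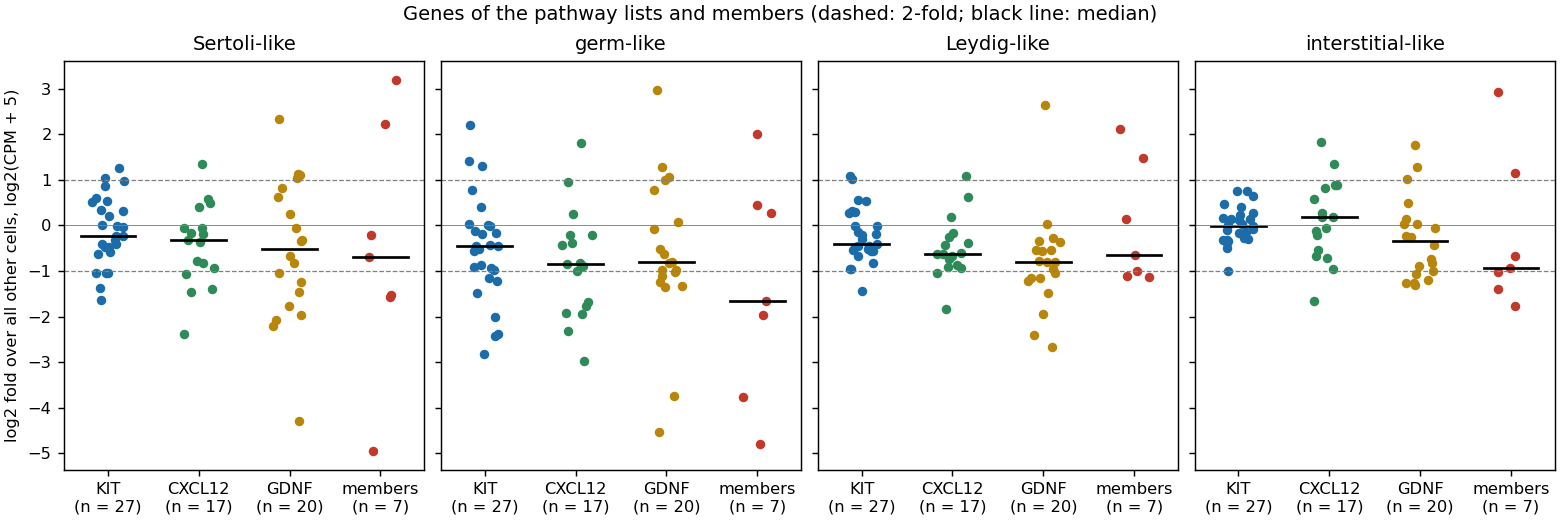
Log2 difference of each gene between a class and all other kept cells (y axis, on the scale log2(CPM + 5)) for the pathway lists and the members with at least 50 UMIs (x axis). Black lines are medians and dashed lines 2-fold. *Lhx1* in germ-like cells (2.97), *Nrtn* in Leydig-like cells (2.64) and *Gdf15* in Sertoli-like cells (2.34) are the highest list genes of those panels.

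The genes with the most similar profile over the 9 classes were found among 12215 genes with at least 100 UMIs, as the smallest root mean square difference of centered log2(CPM + 5). For *Kitl* it was *Adamts9* (0.43, Pearson r = 0.971), followed by *Map1b* and *Tinagl1*. For *Gdnf* it was *Spock2* (0.25, r = 0.976), before *Akr1b7* and *Atp8a2*. *Cxcl12* was nearest to *Tbx2* (0.37, r = 0.986), followed by *Cdh11*. *Ackr3* was nearest to *Peg12* (0.21, r = 0.971), *P3h2* and *Sned1*. The profile of *Kit* was nearest to *Cd36* (0.55, r = 0.882), *Cd47* and *Ppp2r5a*, and that of *Cxcr4* to *Ppp2r5a* (0.41, r = 0.923), *Tpst2* and *Abca1*. *Ret* was nearest to *Zfp981* (0.06, r = 0.997), *Spint1* and *Adad1*. No neighbor is named for *Gfra1*, whose 13 UMIs do not define a profile. The 9 points of each profile come from the same library, and the classes differ in depth and in number of cells.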

How the data were processed

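Single-cell mRNA of the control library was analysed, as 1 sample without a replicate. The deposited values are raw counts of UMIs for each gene in each barcode, made by the authors with Cell Ranger on an mm10 reference to which YFP had been added, and not normalized. Their processing notes name versions 3.0.2 and 3.1.0, whereas the supplement of the study names a later version. The mutant library was not analysed here.

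From 72595083 UMIs, 372 barcodes under 200 genes, 204 doublets (share of artificial doublets among neighbors, expected rate 4.04%) and 1032 outliers beyond 3 median absolute deviations were removed. The 372 barcodes had 46.8% hemoglobin and 49.2% mitochondrial UMIs and at most 1 UMI of any member. The 3813 kept cells had 2284 to 53213 UMIs. They were clustered with Seurat 5.3.0 and sctransform 0.4.2 in R 4.3.3 (3000 variable genes, without members and pathway list, 30 components, resolution 0.8). A cluster took the name of the marker list with the highest mean log2 ratio, if at least 0.5, with 3 markers in 25% of cells. It stayed unnamed if its 10 leading genes held more markers of another list. It also stayed unnamed if its median UMIs were under 1/3 of that of kept cells and no marker of its own list was among those genes. These limits were chosen with the clusters in view, and 144 cells stayed unnamed, while the 27 erythroid-like and 13 rete testis-like cells were not ranked. The mesonephric epithelium and glial lists named no cluster.

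The remaining steps ran in Python 3.11.15 with scipy 1.17.1, scikit-learn 1.9.0, pandas 2.3.3 and numpy 2.4.6. Of these steps, the fold calls, the Poisson intervals and the random draw used for thinning were run on simulated counts. Those counts were themselves Poisson, with changes larger than 2-fold. They cannot show how the intervals do where UMIs gather in few cells. Folds compare a class with all other kept cells on log2(CPM + 5), for genes with at least 50 UMIs. Thinning drew 5000 UMIs per cell in a single random draw and left out shallower cells. The intervals of thinned shares do not cover the spread between draws. Of the pathway list, genes past 2-fold were named (the 5 largest per class with values, the rest by name), with the 3 nearest profiles per member, and a few genes that these rules select are not reported here. Members and lists were chosen with earlier results of these data known. Gene positions are from GENCODE on GRCm38, which is mm10, and promoter windows were found in RefSeq for 7 of 8 members. That of *Ret* was not among them.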

Additional observations from a re-analysis of the deposited data

How the results depend on the processing

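The levels of 13 pairs of gene and class were recomputed under 10 alternatives each, and 118 of 130 values lay within the counting interval of the value given above. *Cxcl12* in interstitial-like cells moved to 695 CPM at resolution 1.2, 743 CPM with log normalization, 652 CPM with each cell classed by itself and 801 CPM as a mean over cells. *Cxcr4* in Leydig-like cells moved to 21.0 CPM with the outlier filter at 5 deviations, to 21.0 CPM without it, to 20.1 CPM at resolution 1.2 and to 11.7 CPM as a mean over cells. *Gdnf* in Leydig-like cells moved to 12.1 CPM without the outlier filter. *Cxcr4* in endothelial-like cells moved to 38.0 CPM with no doublets removed and to 13 CPM with each cell classed by itself, and *Kit* there to 19.1 CPM with the latter. With 1 CPM added in place of 5, 11 in place of 7 pathway genes were at least 2-fold higher in Sertoli-like cells. The causes of these moves were not tested. *Kit* was highest in immune-like cells with no doublets removed (40.0 CPM) or with the doublet rate doubled (40.8 CPM), *Cxcr4* in immune-like cells with each cell classed by itself (19.2 CPM) or with the doublet rate doubled (23.6 CPM), *Ackr3* in peritubular myoid-like cells at resolution 1.2 (21.9 CPM) or with each cell classed by itself (21.0 CPM), and *Gfra1* in rete testis-like cells with no doublets removed (4.03 CPM). Levels in Leydig-like and endothelial-like cells were added to the alternatives after the data had been seen. No paired analysis was possible because there was 1 library. The 42 endothelial-like and 36 immune-like cells and the depth of 5000 UMIs limit what can be said of *Cxcr4* and *Gfra1*.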
